A study of Homo sapiens with 6 samples.

Results

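Copying the genome once per cell cycle needs a set of proteins that human cells make in bulk as they pass from G1 into S phase. Cyclin E, bound to its kinase CDK2, helps to release E2F transcription factors from the retinoblastoma protein, and E2F then raises transcription of the genes for replication and nucleotide synthesis. The origin recognition complex, CDC6 and CDT1 load the MCM2-7 helicase onto DNA in G1, CDC45 and the GINS complex turn it into an active helicase in S phase, and polymerases follow with the sliding clamp PCNA. The genes described here are 37 members of that programme, taken by symbol from a written list of G1/S and DNA replication genes out of 59653 gene symbols in the count table. The list was written by function, with earlier results of these data known. All 37 were found and all 37 passed the filter on low counts, with control means from 12.5 to 467 CPM (counts after scaling for the size of each library).

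The cells were PA1, an established human ovarian teratocarcinoma cell line labelled wild type in every library, and mRNA was sequenced. Cells in adherent culture received siRNA against SOX2, a pluripotency transcription factor, or a negative control siRNA. After 24 h they went onto poly-HEMA, a coating that keeps cells from attaching, and were harvested after 72 h in suspension. Each group had 3 libraries, and the comparison asked how reduced SOX2 changes expression in cells growing without anchorage. Both groups therefore share the transfection and the suspension culture, and the labels do not say whether the SOX2 siRNAs named there were pooled or whether replicates were separate cultures. If the cultures were not separate, the p-values measure only the spread between these libraries. In bulk RNA, fewer cells in S phase and less of a transcript per cell cannot be told apart.

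Library totals ranged from 25152313 to 32753184 counts. SOX2 itself had 245, 265 and 256 CPM in control replicates 1 to 3 and 51.8, 54.9 and 50.6 CPM in SOX2 siRNA replicates 1 to 3, so 20.6% of the control level remained (log2 fold change -2.28, SE 0.0429; edgeR adjusted p = 5.97e-16). Of 8 identity markers of pluripotent teratocarcinoma cells, POU5F1, LIN28A, LIN28B, SALL4 and PODXL were at 142 to 1325 CPM across the libraries, while L1TD1 and DPPA4 reached at most 3.08 CPM and TDGF1 was at or near 0. The groups did not overlap for PODXL, LIN28A, LIN28B, POU5F1 and, at a low level, DPPA4. PODXL was 1298 to 1325 CPM in control and 654 to 699.9 CPM in SOX2 siRNA libraries. In the same order, LIN28A was 704 to 710.1 and 1136 to 1154 CPM, and LIN28B 228 to 250 and 345 to 368 CPM. POU5F1 was 279 to 313 and 330 to 354 CPM, and DPPA4 3.03 to 3.08 and 1.71 to 2.94 CPM. Their part in the results on the members was not tested. The summed level of the 3 endothelial markers was 74.5 to 77.5 CPM in control and 49.9 to 51.9 CPM in SOX2 siRNA libraries, mostly from PECAM1, and its part in the results below was not tested. Leukocyte and keratinising epithelium markers summed to at most 0.83 CPM in any library.

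After SOX2 siRNA the cyclin E genes CCNE1 and CCNE2 rose, as did E2F1 and E2F2, which encode activating E2F proteins. The E2F gene E2F3, outside the members, was not called (log2 fold change 0.0019). In the same comparison 8 genes of licensing, helicase activation and DNA synthesis fell, and TK1, a nucleotide salvage gene, rose. All these called changes were small. Of the 37 members, 5 rose and 8 fell by edgeR's quasi-likelihood test with Benjamini-Hochberg adjustment over all genes and a threshold of 0.05. Those 13 calls are 35.1% of the members, against 28.2% of all tested genes called in either direction, 14.8% higher and 13.4% lower, so the share of called members lies close to that of genes in general. Without the 4 G1/S regulators it was 27.3% (1 higher and 8 lower of 33). By role the share called was 100% for the G1/S regulators and from 16.7% to 33.3% for the others. The largest member change was 1.4-fold. The median log2 fold change was -0.02 over the members and -0.00085 over all tested genes. The median absolute log2 fold change was 0.099 over the members and 0.15 over all genes. All tested genes include many at far lower levels than the members, with larger standard errors. Neither this comparison nor that of the shares called was matched for level. Control and SOX2 siRNA libraries were fully separated for 19 of the 37 members (6 higher and 13 lower). The same held for 41.8% of all tested genes (3783 higher and 3569 lower of 17592). Of the 13 calls, 9 held under each of the 14 alternative analyses that were run: CCNE1, E2F1, E2F2, ORC1, CDC6, GINS4, POLA1, RFC3 and LIG1. CCNE2 was called in 8 of the 14, POLE in 11, CDT1 in 6 and TK1 in 6. With 3 libraries against 3, an exact two-sided permutation test of a single gene cannot give a p below 0.1, so the calls rest on the fit across genes.

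**Figure D1:**
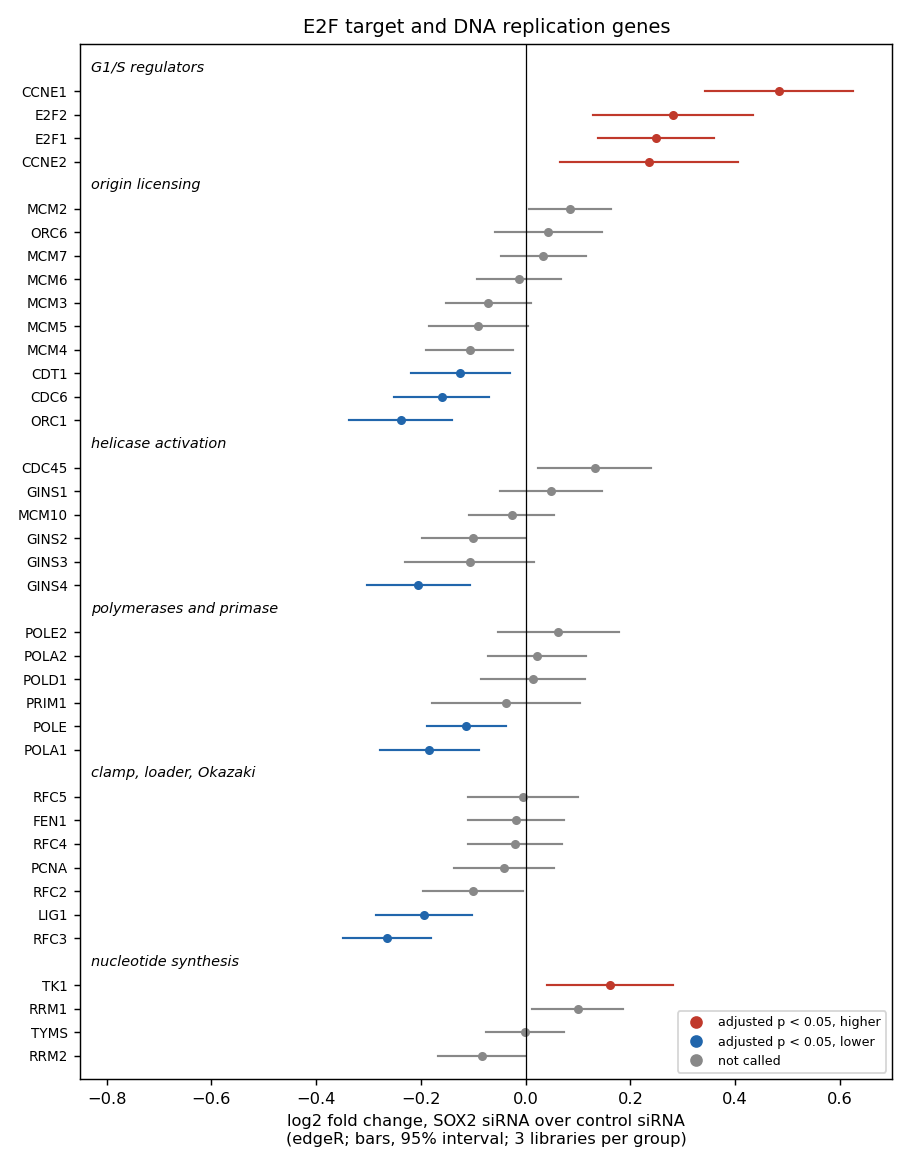
Log2 fold change of each of the 37 members (x axis, SOX2 siRNA over control siRNA, with the 95% interval from edgeR) grouped by role, with 3 libraries per group. All 4 G1/S regulators lie right of 0, the 3 called licensing genes lie left of it, and TK1 is the 1 called gene on the right outside the regulators.

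All 4 G1/S regulators rose, CCNE2 with a call that several alternatives lost. Their median log2 fold change was 0.26, and in each of them every SOX2 siRNA library exceeded every control library. Over all tested genes the groups did not overlap for 41.8%, in either direction. CCNE1 encodes cyclin E1, an activating partner of CDK2. It had 20.8, 18.1 and 19.5 CPM in control replicates 1 to 3 and 26.1, 26.3 and 29.4 CPM in SOX2 siRNA replicates 1 to 3. All SOX2 siRNA libraries lay above the highest control, and the increase was 39.8% (95% interval 26.7% to 54.1%; log2 fold change 0.48, SE 0.067; edgeR adjusted p = 2.88e-05). CCNE2, encoding cyclin E2, had 12.998, 14.0 and 14.9 CPM in control and 15.5, 15.5 and 18.3 CPM in SOX2 siRNA libraries. The groups were separated by a narrow margin, with SOX2 siRNA replicate 3 well above the others (17.7% higher; log2 fold change 0.24, SE 0.081; edgeR adjusted p = 0.0373). Without that library the adjusted p was 0.205 at a log2 fold change of 0.15, and the call was also lost without control replicate 1 (0.156) and without control replicate 2 (0.094). DESeq2 (0.134), limma-voom (0.0636) and edgeR with upper-quartile scaling (0.0547) did not call CCNE2 either.

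E2F1 encodes an activating E2F that binds DNA with a DP partner. It had 36.3, 33.2 and 33.8 CPM in control and 39.6, 40.6 and 42.7 CPM in SOX2 siRNA libraries, a rise of 18.8% (log2 fold change 0.25, SE 0.052; edgeR adjusted p = 0.00157). E2F2, another activating E2F, had 12.4, 12.3 and 12.8 CPM in control and 14.0, 15.7 and 15.9 CPM in SOX2 siRNA libraries. The control libraries lay close together and all SOX2 siRNA libraries were higher, by 21.5% on average (log2 fold change 0.28, SE 0.072; edgeR adjusted p = 0.00739).

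**Figure D2:**
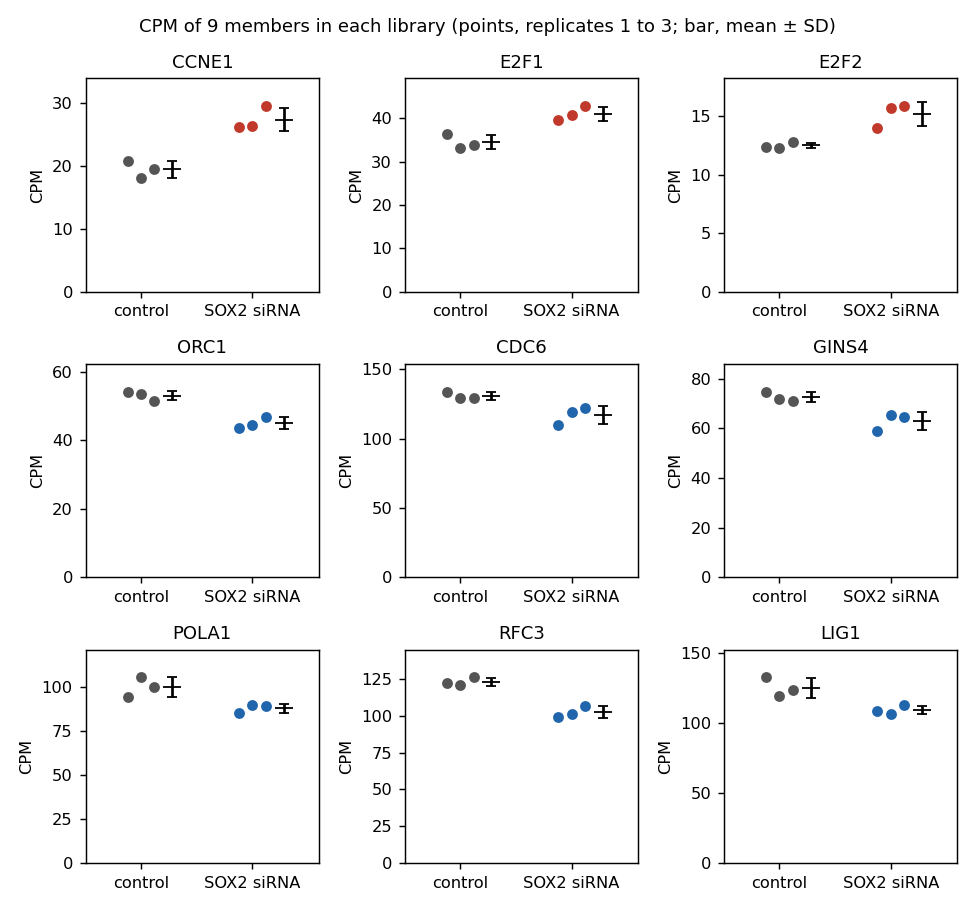
CPM (y axis, from 0) of the 9 members called under every alternative, in each library; points are replicates 1 to 3 from left to right and the bar is the mean with SD (n = 3). CCNE1, E2F1 and E2F2 are higher and ORC1, CDC6, GINS4, POLA1, RFC3 and LIG1 lower in all SOX2 siRNA libraries than in any control library.

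Of 10 origin licensing genes 3 fell and none rose, with a median log2 fold change of -0.081. The share called was 30%, against 28.2% of all tested genes called in either direction and 13.4% called lower. A contrast with the regulators was not tested. The 3 that fell were the loaders ORC1, CDC6 and CDT1. ORC1 encodes the largest subunit of the origin recognition complex. It had 54.2, 53.5 and 51.5 CPM in control and 43.5, 44.6 and 46.9 CPM in SOX2 siRNA libraries, with no overlap. It fell by 15.2% (log2 fold change -0.24, SE 0.046; edgeR adjusted p = 8.3e-04). CDC6, encoding an ATPase that helps to load the MCM ring, had 134, 129 and 129 CPM in control and 110, 120 and 122 CPM in SOX2 siRNA libraries. SOX2 siRNA replicate 1 was the lowest, and all 3 lay under the controls. CDC6 fell by 10.5% (log2 fold change -0.16, SE 0.043; edgeR adjusted p = 0.00911). CDT1, which brings the MCM ring to the origin, had 50.2, 47.7 and 47.6 CPM in control and 44.8, 44.2 and 44.7 CPM in SOX2 siRNA libraries. It fell by 8.27%, a marginal call (log2 fold change -0.12, SE 0.045; edgeR adjusted p = 0.0477) that was lost when any one of the 6 libraries was left out, with adjusted p from 0.058 to 0.146, and also with DESeq2 (0.162) and with no filter beyond 1 count (0.109). ORC6, another subunit of the origin complex, was not called, at 64.9 ± 1.74 and 66.8 ± 4.17 CPM (SD, n = 3).

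The MCM2-7 ring, which is the helicase itself and is built from 1 copy of each subunit, showed no called change in any of its 6 genes by edgeR with TMM scaling, and MCM4 lay at the threshold. At an unadjusted p under 0.05 there were 2 of 6, DESeq2 called 1 and limma-voom 0. MCM4 had 461, 474 and 466 CPM in control and 406, 444 and 452 CPM in SOX2 siRNA libraries. The groups did not overlap and SOX2 siRNA replicate 1 was lowest (log2 fold change -0.11; edgeR adjusted p = 0.0521, 0.0417 by DESeq2, and 0.0177 by edgeR without SOX2 siRNA replicate 3). MCM4 was also called lower by edgeR with upper-quartile scaling (0.013), total counts only (0.0254) and at least 10 counts in every library (0.0394). MCM2 leaned the other way, at 202, 194 and 196 CPM in control and 202, 211 and 216 CPM in SOX2 siRNA libraries (log2 fold change 0.085; edgeR adjusted p = 0.0997, and 0.0379 without SOX2 siRNA replicate 1). MCM3, MCM5, MCM6 and MCM7 had log2 fold changes of -0.072, -0.09, -0.013 and 0.034 and were not called, although MCM5 passed without SOX2 siRNA replicate 3 (-0.13; edgeR adjusted p = 0.0352). The 95% intervals of the 6 genes lay between a fall of 12.4% and a rise of 11.99%.

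Genes that turn the loaded ring into a working helicase gave 1 call among 6 (16.7%, against 28.2% of all tested genes). Their median log2 fold change was -0.063. GINS4, a subunit of the GINS complex that joins the helicase to the polymerase, had 74.7, 71.9 and 71.0 CPM in control and 58.9, 65.5 and 64.5 CPM in SOX2 siRNA libraries. It fell by 13.2%, with replicate 1 again lowest (log2 fold change -0.20, SE 0.047; edgeR adjusted p = 0.00308). Its partners GINS1, GINS2 and GINS3 had log2 fold changes of 0.048, -0.1 and -0.11 and were not called. For GINS2 and GINS3, though, every SOX2 siRNA library lay under every control library. Groups without overlap, in either direction, were found for 41.8% of all tested genes. Whether GINS4 differs from its partners was not tested. CDC45, the other helicase cofactor, had 31.3, 29.2 and 30.3 CPM in control and 33.4, 33.8 and 32.2 CPM in SOX2 siRNA libraries, which do not overlap, but missed the threshold (log2 fold change 0.13; edgeR adjusted p = 0.0674). MCM10, an initiation factor, was at 85.7 ± 1.22 and 84.1 ± 1.61 CPM (SD, n = 3).

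Among polymerase and primase genes 2 of 6 fell (33.3%), against 28.2% of all tested genes called in either direction and 13.4% called lower. POLA1, the catalytic subunit of polymerase alpha that extends the primer, had 94.4, 105 and 99.9 CPM in control and 85.1, 89.6 and 89.0 CPM in SOX2 siRNA libraries. The lowest control lay above the highest SOX2 siRNA library, and the gene fell by 11.96% (log2 fold change -0.18, SE 0.045; edgeR adjusted p = 0.00478). POLE, the catalytic subunit of the leading-strand polymerase epsilon, had 277, 266 and 263 CPM in control and 243, 247 and 256 CPM in SOX2 siRNA libraries. It fell by 7.59%, with no overlap (log2 fold change -0.11, SE 0.036; edgeR adjusted p = 0.0237). That call was lost without control replicate 1 (0.076), SOX2 siRNA replicate 1 (0.055) or SOX2 siRNA replicate 2 (0.0978). The accessory subunits POLA2 and POLE2, the primase subunit PRIM1 and POLD1, the catalytic subunit of polymerase delta, were not called and had log2 fold changes from -0.037 to 0.063.

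The clamp, its loader and the enzymes that finish Okazaki fragments gave 2 calls among 7 (28.6%), both lower. Of all tested genes, 28.2% were called in either direction and 13.4% lower. All 7 fold changes were below 0, as were those of 8826 of 17592 tested genes. Those of RFC5 and FEN1 changed sign when single libraries were left out, so no direction is claimed for them. RFC3, a small subunit of the loader that opens PCNA, was the member with the strongest decrease. It had 122, 121 and 126 CPM in control and 99.5, 101 and 107 CPM in SOX2 siRNA libraries. The groups were clearly separated and RFC3 fell by 16.8% (log2 fold change -0.26, SE 0.04; edgeR adjusted p = 6.7e-05). LIG1, the ligase that seals Okazaki fragments, had 133, 119 and 123 CPM in control and 109, 107 and 113 CPM in SOX2 siRNA libraries. The control libraries spread more than the others, and LIG1 fell by 12.6% (log2 fold change -0.19, SE 0.043; edgeR adjusted p = 0.00259). PCNA was not called, at 214, 218 and 225 CPM in control and 199, 211 and 228 CPM in SOX2 siRNA libraries, where replicates 1 and 2 lay under and replicate 3 above all controls. The loader subunits RFC2, RFC4 and RFC5 and the flap endonuclease gene FEN1 had log2 fold changes of -0.1, -0.02, -0.0052 and -0.019 and were not called, RFC2 passing without SOX2 siRNA replicate 3 (-0.14; edgeR adjusted p = 0.0393). For RFC2 every SOX2 siRNA library lay under every control library, and the groups did not overlap for 41.8% of all tested genes. Whether RFC3 differs from its partners was not tested.

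Of the 4 nucleotide synthesis genes, TK1 rose and none fell (25% called, against 28.2% of all tested genes). TK1 encodes the S-phase thymidine kinase of the salvage pathway. It had 35.1, 30.7 and 33.8 CPM in control and 36.3, 36.2 and 39.0 CPM in SOX2 siRNA libraries, a narrow separation (11.8% higher; log2 fold change 0.16, SE 0.057; edgeR adjusted p = 0.0426). The call was lost without control replicate 2 (0.188), control replicate 3 (0.0776), SOX2 siRNA replicate 2 (0.0739) or SOX2 siRNA replicate 3 (0.16). It was also lost with upper-quartile scaling (0.072), total counts only (0.0519), DESeq2 (0.117) and limma-voom (0.0658). The subunits of ribonucleotide reductase, which makes deoxyribonucleotides, leaned in opposite directions. RRM1, the large subunit, had 258, 257 and 260 CPM in control and 259, 277 and 293 CPM in SOX2 siRNA libraries (log2 fold change 0.099; edgeR adjusted p = 0.083), and without SOX2 siRNA replicate 1 it was called (0.14; adjusted p = 0.00865). RRM2, the small subunit, had 186, 189 and 189 CPM in control and 168, 182 and 183 CPM in SOX2 siRNA libraries (log2 fold change -0.084; edgeR adjusted p = 0.124), separated by a narrow margin. TYMS, encoding thymidylate synthase, was at 308 ± 4.04 and 308 ± 9.89 CPM (SD, n = 3), with a 95% interval from a fall of 5.1% to a rise of 5.13%.

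The members also shared an order among the SOX2 siRNA libraries. Replicate 1 gave the lowest CPM of the 3 for 30 of the 37 members, whereas it was lowest for 38.7% of all tested genes. Replicate 3 gave the highest for 29 members, and the share of all tested genes highest there was not computed. The median member lay -0.10, -0.013 and 0.024 log2 units from the control mean in SOX2 siRNA replicates 1 to 3, against 0.021, -0.013 and -0.0065 in control replicates 1 to 3. Over all tested genes these medians stayed within 0.0069 of 0. Without SOX2 siRNA replicate 1 the members' median log2 fold change was 0.014, with 7 members higher and 6 lower. Without replicate 3 it was -0.045, with 3 higher and 10 lower, and without control replicate 2 there were also 3 higher and 7 lower. The G1/S regulators stood above the control mean in all 3 SOX2 siRNA libraries for all 4 genes (medians 0.18, 0.28 and 0.37), while the other 33 members had medians of -0.12, -0.017 and -0.0028. Mitochondrial genes took 6.47% to 6.6% of counts in the SOX2 siRNA libraries and 6.54% to 7.08% in control. What sets replicate 1 apart on these genes was not tested.

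**Figure D3:**
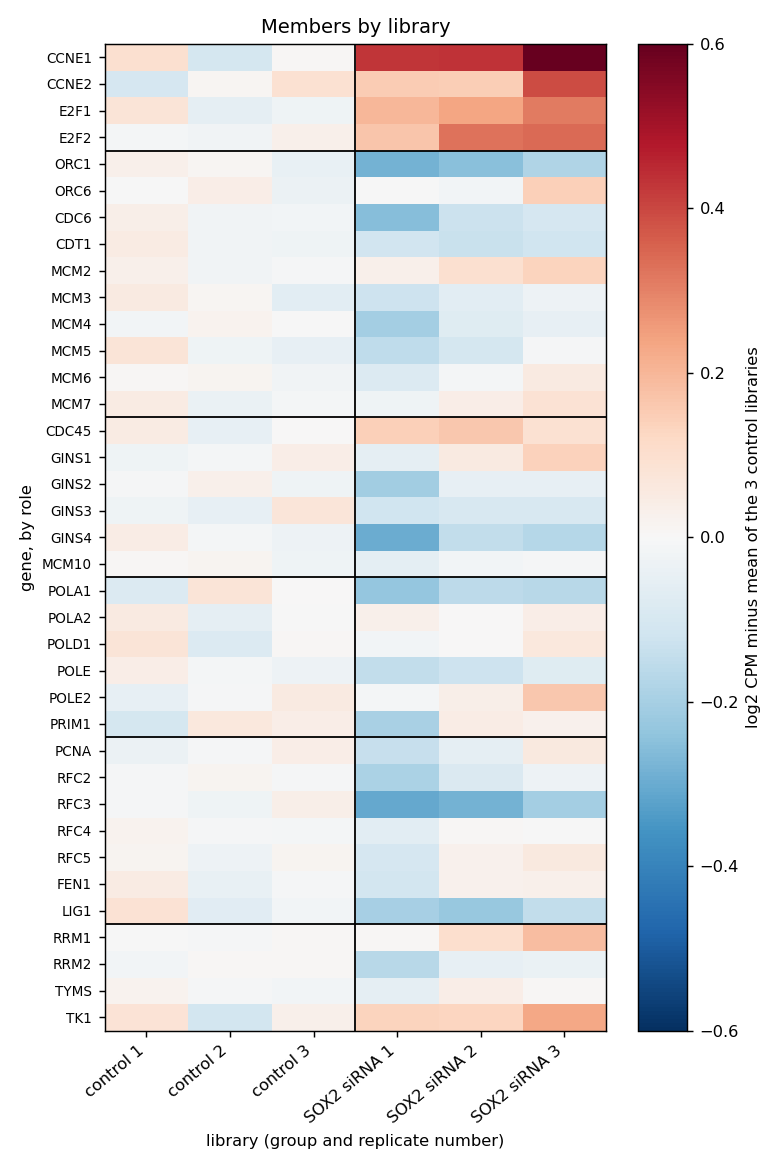
Log2 CPM of each member minus its mean over the 3 control libraries (colour), for the 6 libraries (columns) and 37 members grouped by role (rows, black lines between roles). The 4 regulators at the top are red in all SOX2 siRNA libraries, and most other rows are bluest in SOX2 siRNA replicate 1, whose median over all members is -0.10.

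Levels per length spanned a wide range, and genes of 1 role stood far apart in it. Divided by merged exon length in GENCODE 29, PCNA had 149 ± 3.9 CPM per kb in control libraries, TYMS 125 ± 1.63, MCM3 93.3 ± 3.77 and MCM6 73.1 ± 1.03 (SD, n = 3). At the other end stood CCNE1 with 7.63 ± 0.525, GINS3 with 4.46 ± 0.205, CCNE2 with 3.18 ± 0.214 and E2F2 with 2.29 ± 0.0452 CPM per kb. Places 1 to 4 and 30 to 37 of the order were each separated from the next gene in every control library. From PRIM1 in place 17 to POLD1 in place 29 each gene overlapped the next, so the order of neighbours is not settled there. Genes far apart in that stretch could still be separated. The lowest control library of PRIM1 (18.3 CPM per kb) lay above the highest of POLD1 (14.1 CPM per kb). Within the MCM ring the order in control was MCM3, MCM6, MCM4, MCM7, MCM2 and MCM5, with MCM4 (67.0 ± 0.924) and MCM7 (65.4 ± 2.06) not separated and MCM5 at 22.2 ± 1.05 CPM per kb. E2F1 moved from place 28 in control to place 21 in SOX2 siRNA libraries, and ORC1 from 21 to 25, within the crowded middle. Merged exons count all annotated isoforms, so a gene with long rarely used exons reads lower on this scale.

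**Figure D4:**
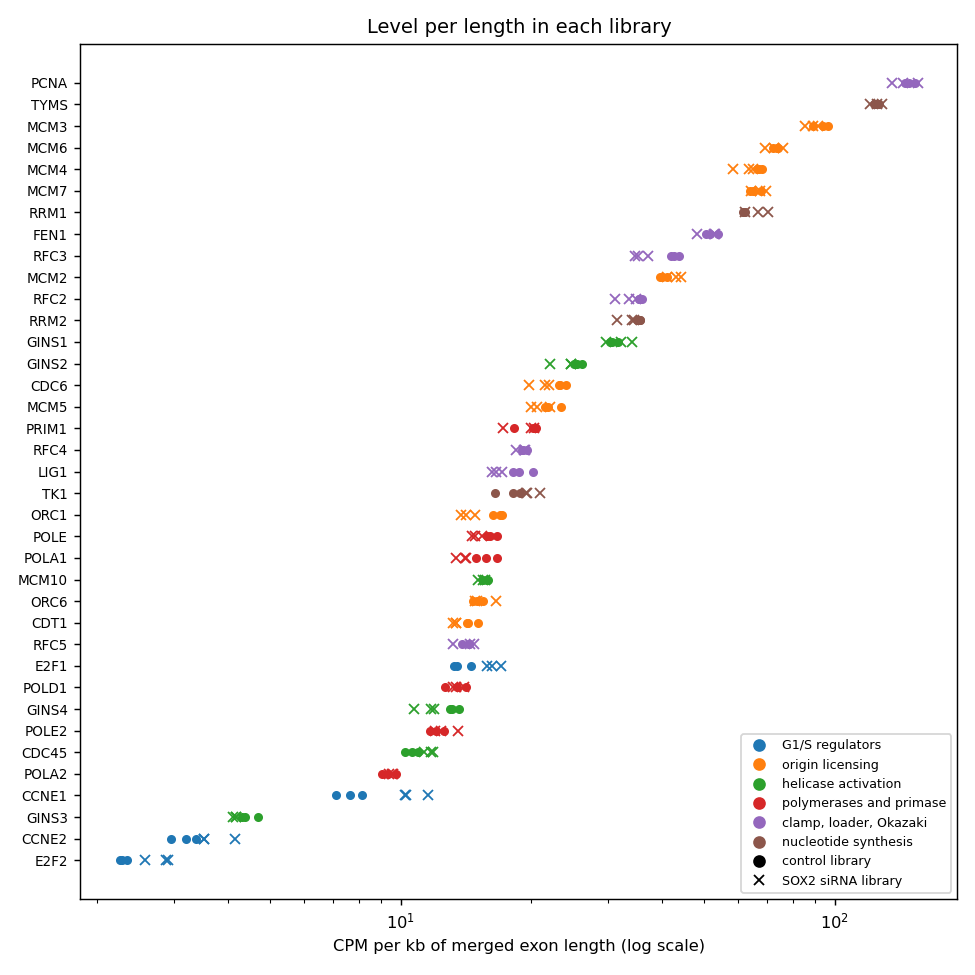
CPM per kb of merged exon length (x axis, log scale) of each member in each library, ordered by the control mean and coloured by role; circles are control and crosses SOX2 siRNA libraries. PCNA and TYMS are at the top with 149 and 125 CPM per kb in control, and the crosses of CCNE1, CCNE2, E2F1 and E2F2 lie right of their circles.

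Promoter windows were read for 33 of the 37 members from RefSeq (GRCh38.p14; from 250 bases before to 50 after the first listed start) and searched on both strands for letters that E2F proteins are known to bind: TTTCCCGC, TTTCGCGC, TTTGCCGC and TTTGGCGC. Such letters were found for 19 of 33 members (57.6%), against 5.2% of the promoters of tested genes and 3.3% of all promoters in the table; E2F targets were on the list by name, so this describes the list. They occurred in 2 of 4 members that rose, 6 of 7 that fell and 11 of 22 that were not called. The pentamer CCAAT, bound by NF-Y, was found for 18 of 33 members (54.5%) and 36.8% of promoters of tested genes. The cell cycle homology letters TTTGAA or TTCGAA, known from promoters of late cell cycle genes, were found for 2 of 33 members (6.1%) and 11.4% of promoters of tested genes. MCM6 held 4 E2F matches, in 2 pairs that overlap on opposite strands, at -152 and -148 and at -90 and -86 from the start. A match is a run of letters and was not tested as a binding site.

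The windows below show the promoters of the called members with the smallest p in each direction, 2 that rose and 3 that fell, as the 250 bases before the start, 5′ to 3′ on the gene's strand, with E2F letters in capitals. They are chr19:29811741-29811990 (plus strand), chr20:33686386-33686635 (minus), chr13:33817899-33818148 (plus), chr1:52404424-52404673 (minus) and chr19:48170345-48170594 (minus).
CCNE1: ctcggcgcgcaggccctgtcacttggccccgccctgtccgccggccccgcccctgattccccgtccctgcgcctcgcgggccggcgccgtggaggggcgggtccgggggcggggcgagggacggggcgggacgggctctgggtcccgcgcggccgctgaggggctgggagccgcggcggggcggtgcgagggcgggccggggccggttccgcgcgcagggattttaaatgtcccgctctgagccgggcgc
E2F1: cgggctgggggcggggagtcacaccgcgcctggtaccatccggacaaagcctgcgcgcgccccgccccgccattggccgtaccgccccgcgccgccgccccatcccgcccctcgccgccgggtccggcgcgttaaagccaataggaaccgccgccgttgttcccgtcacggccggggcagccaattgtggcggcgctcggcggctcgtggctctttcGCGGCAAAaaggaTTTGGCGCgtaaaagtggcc
RFC3: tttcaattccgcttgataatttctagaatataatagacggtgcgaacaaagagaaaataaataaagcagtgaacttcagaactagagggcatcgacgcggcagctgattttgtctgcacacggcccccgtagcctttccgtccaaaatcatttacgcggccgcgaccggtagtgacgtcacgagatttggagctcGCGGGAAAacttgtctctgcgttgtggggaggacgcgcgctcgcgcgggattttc
ORC1: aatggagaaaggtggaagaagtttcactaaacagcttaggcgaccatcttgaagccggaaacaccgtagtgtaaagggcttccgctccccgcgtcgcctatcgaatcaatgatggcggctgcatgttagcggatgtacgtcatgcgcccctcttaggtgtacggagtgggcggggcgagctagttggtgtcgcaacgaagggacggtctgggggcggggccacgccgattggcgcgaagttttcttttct
LIG1: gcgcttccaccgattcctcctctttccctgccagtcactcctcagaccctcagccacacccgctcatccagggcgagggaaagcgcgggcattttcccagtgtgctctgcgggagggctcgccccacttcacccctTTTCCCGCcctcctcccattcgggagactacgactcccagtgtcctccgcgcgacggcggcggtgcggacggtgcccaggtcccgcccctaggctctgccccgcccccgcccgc
E2F1 carries 2 matches 33 and 20 bases before the start, RFC3 1 match at 55 bases and LIG1 1 match at 114 bases before it. CCNE1, the member that rose most, and ORC1 hold none of these letters in the window shown.

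Other genes of the pathway, 71 in all outside the members, were also called in both directions. Of these, 11 rose and 15 fell (36.6% called, against 28.2% of all tested genes), with a median log2 fold change of -0.019, and the share called ran from 18.2% to 50% over the 4 lists. Among 11 other E2F, DP and pocket protein genes 1 rose and 1 fell. TFDP2, a DNA-binding partner of E2F, went from a control mean of 162 ± 3.14 CPM to 140 ± 1.98 CPM (SD, n = 3), a fall by edgeR at an adjusted p of 2.91e-04. RBL2, the pocket protein p130 that represses E2F targets in resting cells, rose from 59.2 ± 2.61 CPM in control to 66.5 ± 3.04 CPM (SD, n = 3) with an edgeR adjusted p of 0.0122, a call lost without control replicate 1 (0.0543), control replicate 3 (0.0566) or SOX2 siRNA replicate 1 (0.0562). The retinoblastoma gene RB1 (log2 fold change 0.096; edgeR adjusted p = 0.131) and the other E2F genes of the list were not called.

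In the list of 20 other subunits and topoisomerases 2 rose and 4 fell (30% called, against 28.2% of all tested genes). POLD3, an accessory subunit of polymerase delta, had 82.0, 84.3 and 82.0 CPM in control and 59.6, 59.5 and 61.0 CPM in SOX2 siRNA libraries, a tight separation (log2 fold change -0.46, SE 0.04; edgeR adjusted p = 9.81e-08). The primase subunit gene PRIM2 (log2 fold change -0.23) fell, and the nuclease gene DNA2 (0.24) and the topoisomerase gene TOP2A (0.13) rose, TOP2A not without SOX2 siRNA replicate 2 (edgeR adjusted p = 0.0539). RFC1 (-0.14) and POLD4 (-0.47), named after their values were seen, also fell; POLD4 was low in all libraries and lost its call without control replicate 1 (0.0842), control replicate 2 (0.105) or SOX2 siRNA replicate 3 (0.0888).

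Among 16 firing kinases, firing factors and fork proteins 2 rose and 4 fell (37.5% called, against 28.2% of all tested genes). CDK2, the kinase partner of cyclin E, had 53.1, 51.2 and 52.3 CPM in control and 68.8, 69.6 and 70.5 CPM in SOX2 siRNA libraries, with no overlap (log2 fold change 0.41, SE 0.041; edgeR adjusted p = 6.01e-07). CDC7, the kinase that phosphorylates the MCM ring, and the firing factors TICRR and DONSON had log2 fold changes of -0.15, -0.15 and -0.14 and were called lower. CCNA2 (0.12) and WDHD1 (-0.14), named after their values were seen, were also called. CCNA2 kept its call only when SOX2 siRNA replicate 1 was the library left out. The number called lower in this list rested on single libraries: it was 0 without control replicate 2 or SOX2 siRNA replicate 1, 1 without control replicate 3, 2 without SOX2 siRNA replicate 2, 5 without control replicate 1 and 6 without SOX2 siRNA replicate 3. DESeq2 called 2. The number called higher was 1, that of CDK2, when any library other than SOX2 siRNA replicate 1 was left out.

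The 24 other E2F target genes were split evenly, with 6 higher and 6 lower (50% called, against 28.2% of all tested genes). ASF1B, a histone chaperone, rose from 42.1 ± 2.01 to 52.6 ± 2.26 CPM, and ATAD2, an ATPase with a bromodomain, from 108 ± 4.84 to 135 ± 9.37 CPM (SD, n = 3). UHRF1, which helps to maintain DNA methylation, rose from 226 ± 4.76 to 266 ± 13.8 CPM (SD, n = 3). The highest edgeR adjusted p of these 3 genes was 2.51e-04. None of the 3 had overlapping groups. Among the genes called lower were HELLS (log2 fold change -0.24), NASP (-0.22) and CDCA7 (-0.20), named after their values were seen. Across these lists and the members alike, genes known as E2F targets were called in both directions. So were genes in general, with 14.8% of all tested genes higher and 13.4% lower.

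**Figure D5:**
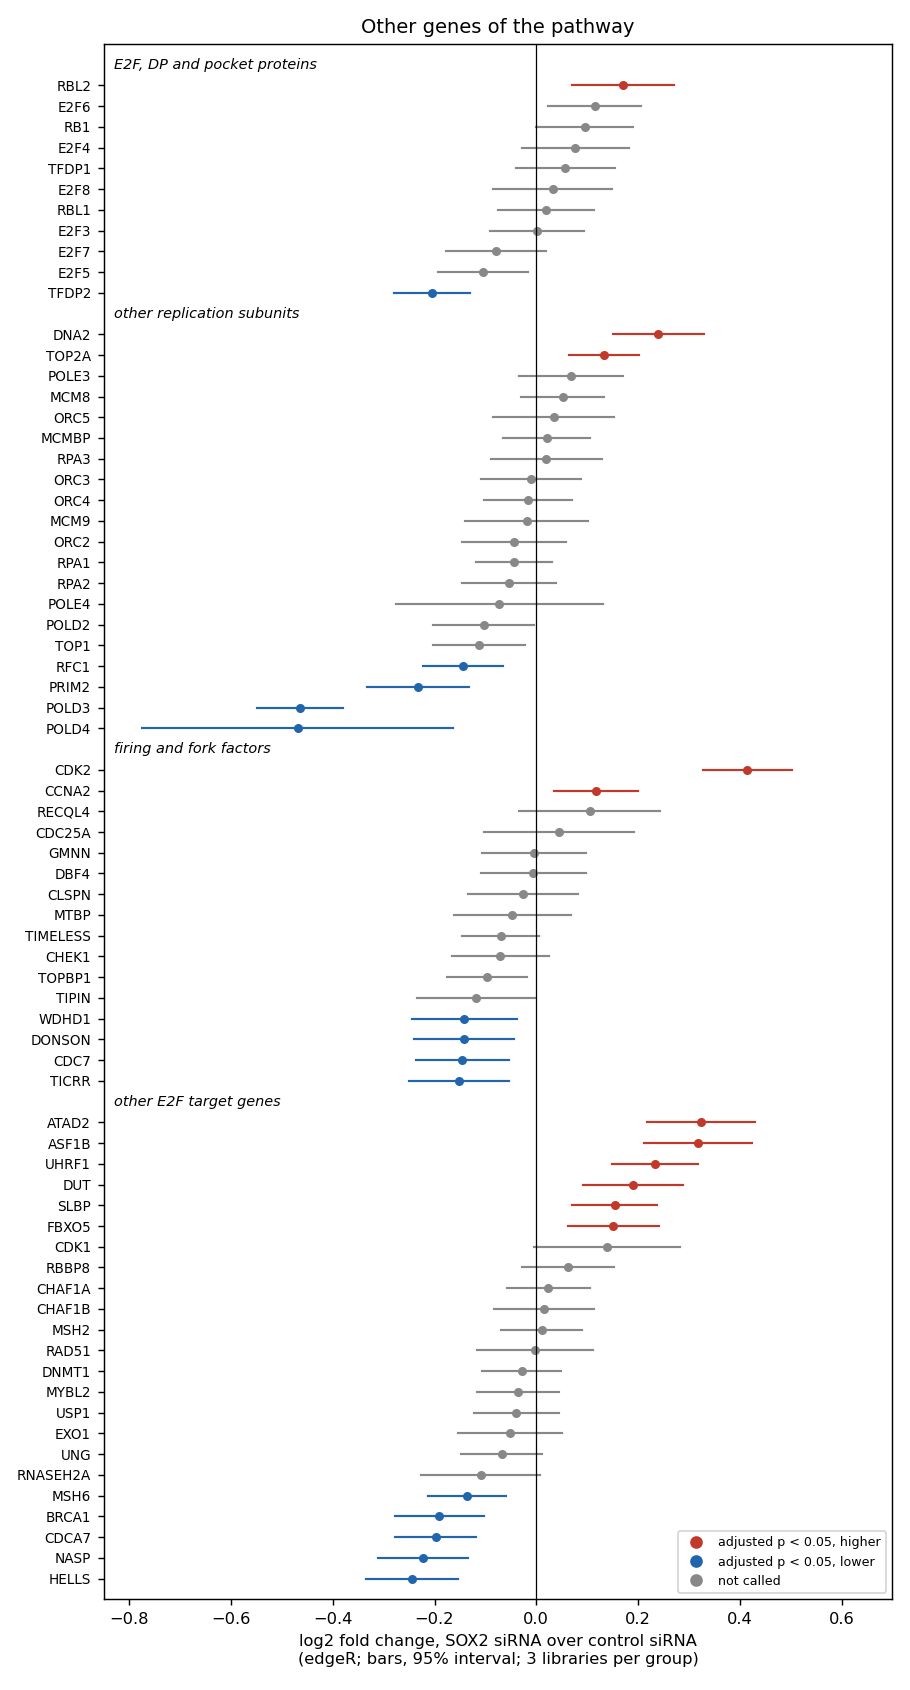
Log2 fold change with 95% interval (x axis, SOX2 siRNA over control siRNA, edgeR, 3 libraries per group) of the 71 pathway genes outside the members, by list, with 1 of the other E2F target genes not drawn. CDK2 at 0.41, POLD3 at -0.46 and POLD4 at -0.47, the last with a wide interval, stand apart within their lists, and the other E2F target genes lie on both sides of 0.

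Counting limits touch some members. Exons of 13 members overlap a gene on the opposite strand in GENCODE 29, among the called ones CCNE2 (with INTS8), GINS4 and LIG1, and the use of strand in counting is not given in the sources used here. Exons of 5 members (POLA2, POLD1, PRIM1, FEN1 and RRM2), none of them called, overlap a gene on the same strand. Numbered pseudogene copies are listed for 6 members, and the largest, RRM2P3, held 0.186% of the count of RRM2.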

How the data were processed

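Whole-number gene counts of 6 mRNA libraries, deposited by the authors with no normalization, were used; per the submitters' processing notes the tools listed were bcl2fastq 2.20.0, STAR 2.7.3a, Salmon 0.14.1 and DESeq2 1.28.1 with build GRCh38.p13. Columns were matched to libraries by the identifier in each library's description. The members and gene lists were chosen with earlier results of these data known.

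Genes were kept by filterByExpr (minimum count 10), scaled by TMM and tested with edgeR 4.0.16 (glmQLFit with robust=TRUE, glmQLFTest) in R 4.3.3 over 17592 genes, with Benjamini-Hochberg adjustment. CPM use the scaled library sizes. Standard errors and 95% intervals are from the same fit. The code was also run on counts simulated from the model that the fit assumes, which does not test the calls on these genes. Alternatives were other scalings and filters, DESeq2 1.42.0, limma-voom (limma 3.58.1), the replicate number as a block, and each library left out; when a group then had 2 libraries the fit still pooled the spread. Log2 CPM of single libraries used a prior count of 2.

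Full statistics are given for called members and up to 3 per role by smallest p, the other members are given by fold change or level, and up to 4 called genes by p are named in each pathway list. GENCODE 29 gave exon lengths and overlaps. Promoter searches used Python 3.11.15 and pandas 2.3.3; the 4 members with no window in the table were not analysed there. The value of 1 pathway gene is not reported here, although the gene stays in the counts of its list.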

Additional observations from a re-analysis of the deposited data

How the results depend on the processing

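Of 518 member values under the 14 alternatives, 462 kept direction and side of the threshold, 25 lost a call, 14 gained one and 17 changed sign; no called member changed sign. The number of members called higher, 5, was 3 under upper-quartile scaling, 3 with DESeq2's Wald test and 3 with limma-voom, and 3 to 7 when single libraries were left out; the number called lower, 8, was 7 to 11, and 6 to 10 without single libraries. Upper-quartile scaling, which shifted the median of all genes by -0.02, gave 3 higher and 11 lower. DESeq2 and limma-voom each gave 8 lower. The 26 called pathway genes ranged from 20 to 29.

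Sign changes were confined to 9 uncalled members near 0. POLD1 was -0.0072 under upper-quartile scaling, and RFC5 0.0011 and TYMS 0.0049 with no filter beyond 1 count. Leaving out single libraries gave ranges that crossed 0: ORC6 -0.012 to 0.0699, MCM6 -0.051 to 0.018, GINS1 -0.0017 to 0.094, POLA2 -0.0033 to 0.051, POLD1 -0.026 to 0.053, PRIM1 -0.089 to 0.031, RFC5 -0.039 to 0.036, FEN1 -0.045 to 0.022 and TYMS -0.025 to 0.019. For these genes no direction is claimed, and apart from the smaller sample of the fits without a library the cause was not tested.

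The labels do not say whether a shared replicate number marks a batch or a pairing, and this was not tested. Same-numbered libraries had correlations of deviations of 0.0868, -0.0377 and -0.0311, and different-numbered libraries from -0.12 to 0.155. With the replicate block 6 members were higher and 9 lower, adding RRM1 (0.098; edgeR adjusted p = 0.0474) and MCM4 (-0.11; 0.0196). With only the 250 bases upstream, E2F letters were found for 42.4% of members and 4.4% of promoters of tested genes; allowing any listed start, chosen after seeing the data, gave 57.6% and 6.4%. At these depths the 24 uncalled members have 95% intervals between a fall of 14.7% and a rise of 18.1%.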
